A study of Homo sapiens with 5 samples.

Results

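The genes examined were 10 members of the AP-1 and immediate early group, FOS, FOSB, FOSL1, FOSL2, JUN, JUNB, JUND, ATF3, EGR1 and IER2, out of 20033 protein-coding genes of GENCODE 44 on chromosomes 1 to 22, X and Y. They were taken by name, and every peak that shared at least 1 bp with the stretch from 5 kb upstream of the gene to its end was assigned to the gene, in GRCh38 coordinates. The data are CUT&RUN libraries, in which an antibody brings a nuclease to a chromatin protein and the released fragments are sequenced. The cells were untreated, proliferating OVCAR8, an established human ovarian carcinoma line in which the study describes the MYC and HSF1 genes as amplified, fixed with 1% formaldehyde for 1 minute and used at 500000 cells per reaction. There were 2 libraries with an HSF1 antibody, 2 with a MYC antibody and 1 with IgG. Each antibody library has its own peak list, called by the authors with MACS2 against the same IgG library. The IgG library has no list here, and nothing in the labels says whether replicates were separate cultures.

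AP-1 is a dimer of basic leucine zipper (bZIP) proteins, built from a JUN family and a FOS family partner or from a pair of JUN family partners, and it binds the sequence TGANTCA. Most of its genes are immediate early genes, transcribed within minutes of growth factor or stress signals without new protein synthesis, through kinases, serum response factor (SRF) and factors already on the DNA. HSF1 is the main activator of the heat shock response and binds inverted repeats of the unit GAA. MYC pairs with MAX and binds E-boxes such as CACGTG, and in many cells it is also found at active promoters without one.

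MYC peaks lay at nearly all of these genes, and JUN was the 1 gene with HSF1 peaks in both replicates. In MYC replicate 1, 10 of the 10 genes had a peak, against 63.3% of all protein-coding genes, and in MYC replicate 2, 8 of 10, against 46.2%. These 8, which had a peak in both MYC lists (45.4% of all genes), were FOS, FOSL1, FOSL2, JUN, JUNB, JUND, EGR1 and IER2, while FOSB and ATF3 had a peak in MYC replicate 1 alone. HSF1 replicate 1 had peaks at JUN, JUNB, FOSL2 and EGR1, 4 of 10 genes against 16.5% of all genes. HSF1 replicate 2 had peaks at JUN, FOS and ATF3, 3 of 10 against 12.3%. JUN was the 1 gene of the 10 with a peak in both HSF1 lists, where 7.81% of all genes had one, so this count is close to that of genes in general. At 6 of the 10 genes at least 1 HSF1 list had a peak (21.1% of all genes). JUN was the 1 gene with a peak in both lists of both factors (6.45% of all genes). It was also the 1 gene at which HSF1 and MYC peaks overlapped in all 4 pairs of lists (3.9% of all genes). FOSB, FOSL1, JUND and IER2 had no HSF1 peak in either list.

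These counts have no test, because the lists hold no read counts. A comparison of 2 lists with 2 could not give an exact two-sided permutation p below 0.333. The lists were also called at different thresholds, 1e-04 for HSF1 and 1e-10 for MYC, so the number of HSF1 genes and the number of MYC genes cannot be set against each other. The lack of a peak at a gene means that none passed the threshold in that library, and does not show that the protein was absent.

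The lists differed in size and depth. HSF1 replicate 1 held 6477 peaks from 10042269 fragments and HSF1 replicate 2 held 4492 from 8721440. MYC replicate 1 held 25646 peaks from 8265647 fragments and MYC replicate 2 held 13290 from 10084407, so the shallower MYC library gave the longer list. The fold enrichment of a peak is the authors' ratio of the fragment pileup at its highest point, the summit, to the local IgG background, with a pseudocount of 1 on each side. Its median over a list was 5.00 and 5.20 in the HSF1 lists and 12.2 and 10.5 in the MYC lists (replicates 1 and 2). Peak lists hold no expression values, so the cells were not checked against marker genes.

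DNA from inside the peaks, or around a summit, is shown here for the genes that the results turn on. Each stretch is read along the gene's own strand from the GRCh38 genome, and positions count from the start of the GENCODE canonical transcript. Capitals mark motif matches: for JUN a pair of inverted GAA units (GAATCTTC) and the AP-1-like element TGACATCA, for FOS and EGR1 the CArG boxes that SRF binds, for FOSL2 and FOSL1 an E-box and an AP-1 site, for JUND a cyclic AMP response element (CRE, TGACGTCA) and for IER2 a CArG box. JUN is shown because both HSF1 summits and a MYC summit fall inside the stretch (chr1:58784067-58784227, minus strand, −180 to −20). FOS (chr14:75278498-75278748, plus strand, −330 to −80) and EGR1 (chr5:138465049-138465309, plus strand, −430 to −170) each hold an HSF1 summit close to the start. FOSL2 (chr2:28409292-28409492, plus strand, 100 bp either side of the summit) holds an HSF1 summit far from any start of the gene. FOSL1 (chr11:65899288-65899488, minus strand), JUND (chr19:18281782-18281882, minus strand) and IER2 (chr19:13151811-13151911, plus strand) lie inside MYC peaks of genes without an HSF1 peak, and the FOSL1 and IER2 stretches were taken around motifs and hold no summit.
JUN promoter: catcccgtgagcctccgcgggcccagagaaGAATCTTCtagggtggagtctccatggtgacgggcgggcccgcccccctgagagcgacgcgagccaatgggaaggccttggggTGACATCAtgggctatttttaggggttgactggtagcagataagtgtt
FOS promoter: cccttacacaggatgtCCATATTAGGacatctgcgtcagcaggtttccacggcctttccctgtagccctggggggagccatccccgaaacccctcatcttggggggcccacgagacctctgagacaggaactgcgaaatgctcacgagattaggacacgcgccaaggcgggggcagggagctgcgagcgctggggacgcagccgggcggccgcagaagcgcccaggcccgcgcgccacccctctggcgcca
EGR1 promoter: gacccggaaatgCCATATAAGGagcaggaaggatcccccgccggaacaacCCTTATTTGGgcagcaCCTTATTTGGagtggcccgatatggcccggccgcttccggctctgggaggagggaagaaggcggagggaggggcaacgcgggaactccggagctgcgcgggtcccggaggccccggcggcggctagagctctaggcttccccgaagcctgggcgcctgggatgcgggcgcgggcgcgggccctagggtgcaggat
FOSL2 intron: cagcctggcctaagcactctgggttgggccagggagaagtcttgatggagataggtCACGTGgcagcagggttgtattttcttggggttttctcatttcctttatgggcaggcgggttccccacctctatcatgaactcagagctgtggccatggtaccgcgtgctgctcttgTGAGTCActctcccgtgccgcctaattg
FOSL1 intron: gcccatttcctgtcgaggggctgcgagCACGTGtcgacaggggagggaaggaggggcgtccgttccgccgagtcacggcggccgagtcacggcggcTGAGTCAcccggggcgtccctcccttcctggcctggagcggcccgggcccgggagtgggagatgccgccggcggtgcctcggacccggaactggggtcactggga
JUND promoter: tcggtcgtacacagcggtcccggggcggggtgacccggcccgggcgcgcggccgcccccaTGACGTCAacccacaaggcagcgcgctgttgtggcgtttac
IER2 intron: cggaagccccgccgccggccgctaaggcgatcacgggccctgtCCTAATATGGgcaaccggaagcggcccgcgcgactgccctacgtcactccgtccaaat

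The JUN family encodes the partner that every classical AP-1 dimer holds. JUN itself (ENSG00000177606, chr1:58776845-58784048, minus strand, a single exon) had the HSF1 peak with the highest fold enrichment of the 10 genes in each replicate. The HSF1 peak at the promoter had a fold of 9.95 in replicate 1 (summit at −102, pileup of 40 fragments, −log10 p 30.6) and of 7.41 in replicate 2 (summit at −116, pileup of 27, −log10 p 18.2). These folds were above 93.6% and 78.2% of their lists, which differ in length. The MYC peak over the same promoter had a fold of 20.2 in replicate 1 (summit at −156) and of 17.3 in replicate 2 (summit at −483). LINC01135 and ENSG00000290013 also start upstream of JUN. The gene start nearest to the summit of MYC replicate 2 was that of LINC01135, 146 bp away. To which of these genes the peak belongs was not tested. Both HSF1 peaks, chr1:58784052-58784615 and chr1:58784051-58784606, lay inside both MYC peaks, and the closest pair of HSF1 and MYC summits was 40 bp apart. The pair of GAA units at −150 was within 100 bp of 3 of the 4 summits, all but that of MYC replicate 2, and the TGACATCA at −67, an element known to bind JUN and ATF family dimers, was within 100 bp of the same 3.

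JUN had further peaks that single lists held. HSF1 replicate 1 had a second, weaker one with a fold of 3.25 (summit at −1571, −log10 p 4.58), and MYC replicate 2 had 2 over the exon, with folds of 6.0 at 1175 and 7.75 at 2219. The gene start nearest to that HSF1 summit was that of ENSG00000290013, 683 bp away. A site with summits 28436 bp to 28489 bp downstream of the gene start, beyond the gene's end and outside the window, carried an HSF1 peak in replicate 1 (fold 6.87) and MYC peaks in both replicates (26.7 and 14.2).

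JUNB (ENSG00000171223, chr19:12791486-12793315), which partners FOS proteins and can oppose JUN, had its strongest peaks upstream of the promoter. HSF1 replicate 1 had a fold of 4.72 with a summit at −1348 and a pileup of 7 fragments, and HSF1 replicate 2 had no peak. MYC had folds of 14.6 and 15.3 (replicates 1 and 2) at the same site, with summits at −1204 and −1291. The HSF1 peak (chr19:12790077-12790278) lay inside both MYC peaks. At the transcription start the MYC lists differed: replicate 1 had a peak at 120 with a fold of 11, and replicate 2 had none there. Both lists had a MYC peak further into the exon, with folds of 10.7 at 1281 and 10.0 at 1303, and replicate 1 had another of 12.3 at 857. Another MYC peak began 219 bp past the gene's end in both lists, outside the window, with folds of 20.5 and 15.2.

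JUND (ENSG00000130522, chr19:18279694-18281622, minus strand), the family member that is usually present before stimulation, had MYC peaks and no HSF1 peak in its window. The promoter peak had folds of 10.8 (summit at −100) and 13.6 (summit at −239), and a second site in the single exon had folds of 13.3 at 1334 and 11.5 at 1016. The CRE at −200 shown above was within 100 bp of the promoter summit in each list. The nearest HSF1 peaks began 5121 bp and 4788 bp beyond the window, on opposite sides of it.

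The FOS family supplies the other partner of the dimer and, unlike the JUN family, does not pair with itself. FOS (ENSG00000170345, chr14:75278826-75282230) had an HSF1 peak in replicate 2 with a fold of 4.52 (summit at −179, pileup of 12, −log10 p 7.0), above 28.8% of that list, and none in replicate 1. The MYC peak at the promoter had folds of 14.0 (summit at −247) and 9.65 (summit at −171). The HSF1 summit was 8 bp from that of MYC replicate 2, the closest HSF1 and MYC summits at any of the 10 genes. A second MYC site further upstream had folds of 8.98 at −1615 and 9.31 at −1402. The CArG box at −314, part of the serum response element for which this promoter is known, was 63 bp from the summit of MYC replicate 1 and outside both HSF1 replicate 2 and MYC replicate 2 peaks. Beyond the window, with summits 15444 bp to 15626 bp downstream of the start and at the beginning of LINC01220, the same 3 lists had a peak, with folds of 4.13 for HSF1 replicate 2 and 11.7 and 10.1 for MYC.

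FOSB (ENSG00000125740, chr19:45467995-45475179), a FOS relative known in the brain for its long-lived splice form, had peaks in MYC replicate 1 alone. Their folds were 9.98 at the promoter (summit at −99) and 12.2 in an intron (summit at 1730). The nearest MYC peak of replicate 2 lay 3720 bp past the gene's end, at the start of ERCC1, where both MYC lists had a peak (17.9 and 16.5).

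FOSL1 (ENSG00000175592, chr11:65892049-65900573, minus strand) encodes a FOS relative without the strong activation domain of FOS and is widely expressed in epithelial tumor cells. It had MYC peaks in both lists and no HSF1 peak. The broad peak over its start had folds of 14.9 (summit at −167) and 13.9 (summit at 787, in an intron). That peak covered the E-box at 927 and the AP-1 site at 996 in both lists, with the E-box 1097 bp and 143 bp from the summit. Replicate 1 also had a peak at −2724 (fold 9.25) and replicate 2 one at 1918 (fold 7.37). A further MYC peak reached into the end of the gene from the start of the neighbouring CCDC85B, with folds of 13.7 and 18.0 and summits 147 bp and 54 bp from that start. It is the highest peak of FOSL1 in replicate 2 only because it touched the window.

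FOSL2 (ENSG00000075426, chr2:28392448-28417317), a close relative of FOSL1, had the most peaks of the 10 genes, 6 in MYC replicate 1 and 4 in MYC replicate 2. At 24870 bp it is longer than the other genes except ATF3 (55444 bp), and peak counts were not adjusted for window length. At the promoter the folds were 23.6 (summit at −165) and 19.6 (summit at −276), and upstream of it 21.2 (−2034) and 23.3 (−2251). Inside the gene, an intronic site had folds of 27.8 at 16378 and 17.8 at 16357, and another had 11.1 at 13930 and 8.92 at 13904. These 4 sites were in both MYC lists. HSF1 replicate 1 had a peak at the first of the intronic sites (chr2:28409123-28409403, summit at 16534), with a fold of 4.12 and −log10 p 6.32, and HSF1 replicate 2 had none. Its summit had an E-box and an AP-1 site within 100 bp, the E-box at a distance of 42 bp and the AP-1 site past the edge of the called peak, and it was the 1 HSF1 peak at these genes with either.

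ATF3, EGR1 and IER2 are induced with the AP-1 genes. ATF3 (ENSG00000162772, chr1:212565334-212620777) encodes a stress-induced bZIP protein that acts mostly as a repressor. Its GENCODE gene starts far upstream of the start of its canonical transcript, 43427 bp inside the gene, and the peaks lay at that inner start. HSF1 replicate 2 had a fold of 4.13 there (summit at −238, pileup of 7, −log10 p 5.19) and MYC replicate 1 a fold of 9.0 (summit at −200). The other list of each factor had no peak, so of the 6 genes with an HSF1 peak ATF3 had a peak in the fewest lists. Just outside its window, 1204 bp and 985 bp beyond the upstream edge, HSF1 had a peak in both replicates, with folds of 7.68 and 10.3 and −log10 p of 12.1 and 19.3. The summits lay at −6862 and −6524 from the outer start of ATF3. The gene start nearest to them was that of ENSG00000288007, 891 bp and 553 bp away. To which gene these HSF1 peaks belong was not tested. No MYC peak was near them: the nearest outside the window was 46683 bp and 75288 bp beyond the edge in the MYC lists. None of the motifs searched was within 100 bp of those HSF1 summits.

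EGR1 (ENSG00000120738, chr5:138465479-138469303), a zinc finger factor of the first wave after growth factor signals, had an HSF1 peak in replicate 1 with a fold of 6.11 (summit at −273, pileup of 12, −log10 p 9.58), above 71.4% of that list. HSF1 replicate 2 had none in the window. The MYC folds were 19.7 (summit at −551) and 9.79 (summit at −144). The gene start nearest to the summit of MYC replicate 1 was that of ENSG00000289267, 250 bp away. Both MYC peaks covered the CArG boxes at −418, −380, −364 and −105, of which the first 3 are in the stretch shown above. The HSF1 peak (chr5:138465119-138465377) ran from the box at −364 to that at −105, inside both MYC peaks.

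IER2 (ENSG00000160888, chr19:13150411-13154911), an immediate early gene of a small family that includes IER5, had the highest MYC fold of the 10 genes in replicate 1, 36.8, and 21.3 in replicate 2. These folds were above 98.9% and 94.5% of their lists. The summits lay at 1699 and 1656, in the intron of the canonical transcript and 135 bp and 92 bp past the start of another coding transcript of IER2, at 1564. The nearest start of another gene was that of ENSG00000287296, 803 bp and 846 bp away and inside the peak in both lists. A CArG box at 1443 and an E-box at 1814 were inside the peak in both lists, 252 bp and 117 bp from the summit of replicate 1. A weaker peak at the canonical start (fold 7.20 at 103) was in replicate 1 alone, and one in exon 2 was in both, with folds of 9.91 and 7.35 at 4121. The gene start nearest to the exon 2 summit was that of ENSG00000267598, 339 bp away. The neighbouring gene STX10 also starts inside the peak at the canonical start. To which gene each of these peaks belongs was not tested. The nearest HSF1 peak of either list began 206931 bp outside the window.

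**Figure D1:**
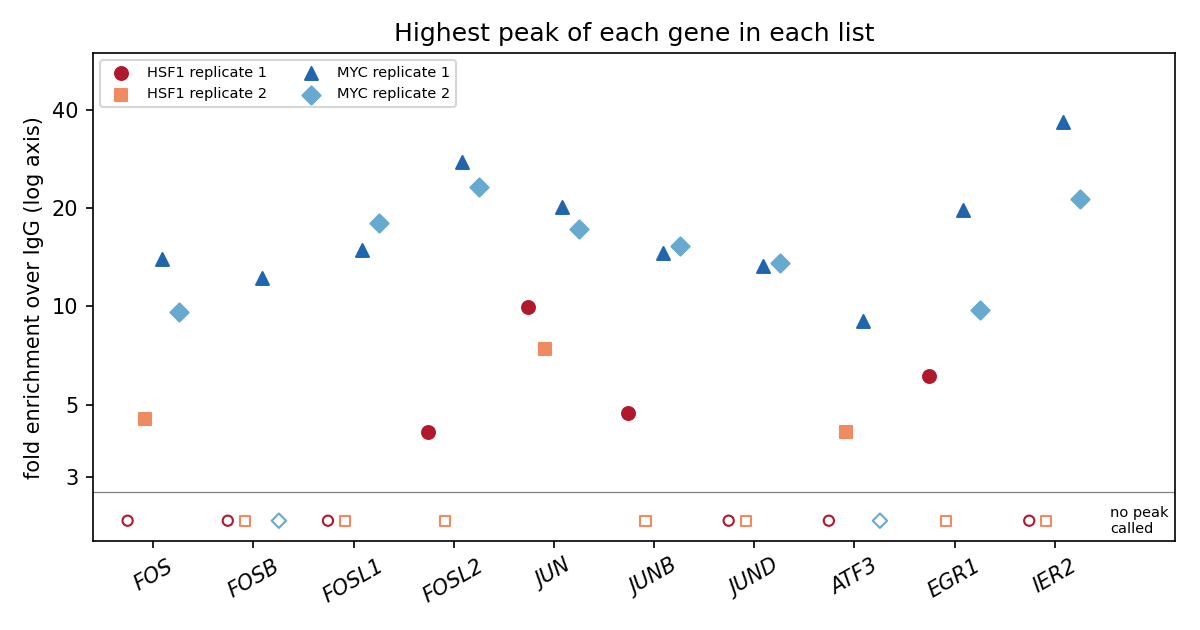
Fold enrichment over IgG (log axis) of the highest peak of each of the 10 genes in each of the 4 lists, with open symbols under the line for a gene without a peak in that list. JUN is the 1 gene with a symbol for all 4 lists, HSF1 at 9.95 and 7.41 and MYC at 20.2 and 17.3, and IER2 has the highest value, 36.8.

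Peaks of different lists that shared at least 1 bp, directly or through another peak, were merged into 26 sites at the 10 genes. Of these, 16 held a peak of both MYC lists and 6 held an HSF1 peak. Every one of the 6 HSF1 sites also held a MYC peak, and 1 site, the JUN promoter, held a peak of all 4 lists. Counted as peaks, 5 of the 5 HSF1 peaks of replicate 1 and 3 of the 3 of replicate 2 overlapped a MYC peak. Over all gene windows the shares were 72.4% and 65.0%, so an HSF1 peak inside a gene window usually overlapped a MYC peak elsewhere too.

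Compared by replicate number, HSF1 replicate 1 peaks overlapped MYC replicate 1 peaks at 4 of the 10 genes, JUN, JUNB, FOSL2 and EGR1 (13.2% of all genes). HSF1 replicate 2 peaks overlapped MYC replicate 2 peaks at 2, JUN and FOS (6.96% of all genes). ATF3 is missing from the second comparison because MYC replicate 2 had no peak there.

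The replicate lists of each factor shared part of their peaks. Of the 5 HSF1 peaks of replicate 1, 1 overlapped a peak of replicate 2 (33.7% over all gene windows), and of the 3 of replicate 2, 1 overlapped a peak of replicate 1 (45.5%). For MYC, 18 of the 25 peaks of replicate 1 overlapped replicate 2 (51.4% over all gene windows), and 16 of the 19 of replicate 2 overlapped replicate 1 (92.2%). The HSF1 peaks seen in single lists, at FOS, FOSL2, JUNB, ATF3 and EGR1, had pileups of 7 to 12 fragments, against 40 and 27 at JUN. All of them had a −log10 p under 10, so at the threshold used for MYC the JUN promoter was the 1 HSF1 site left.

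**Figure D2:**
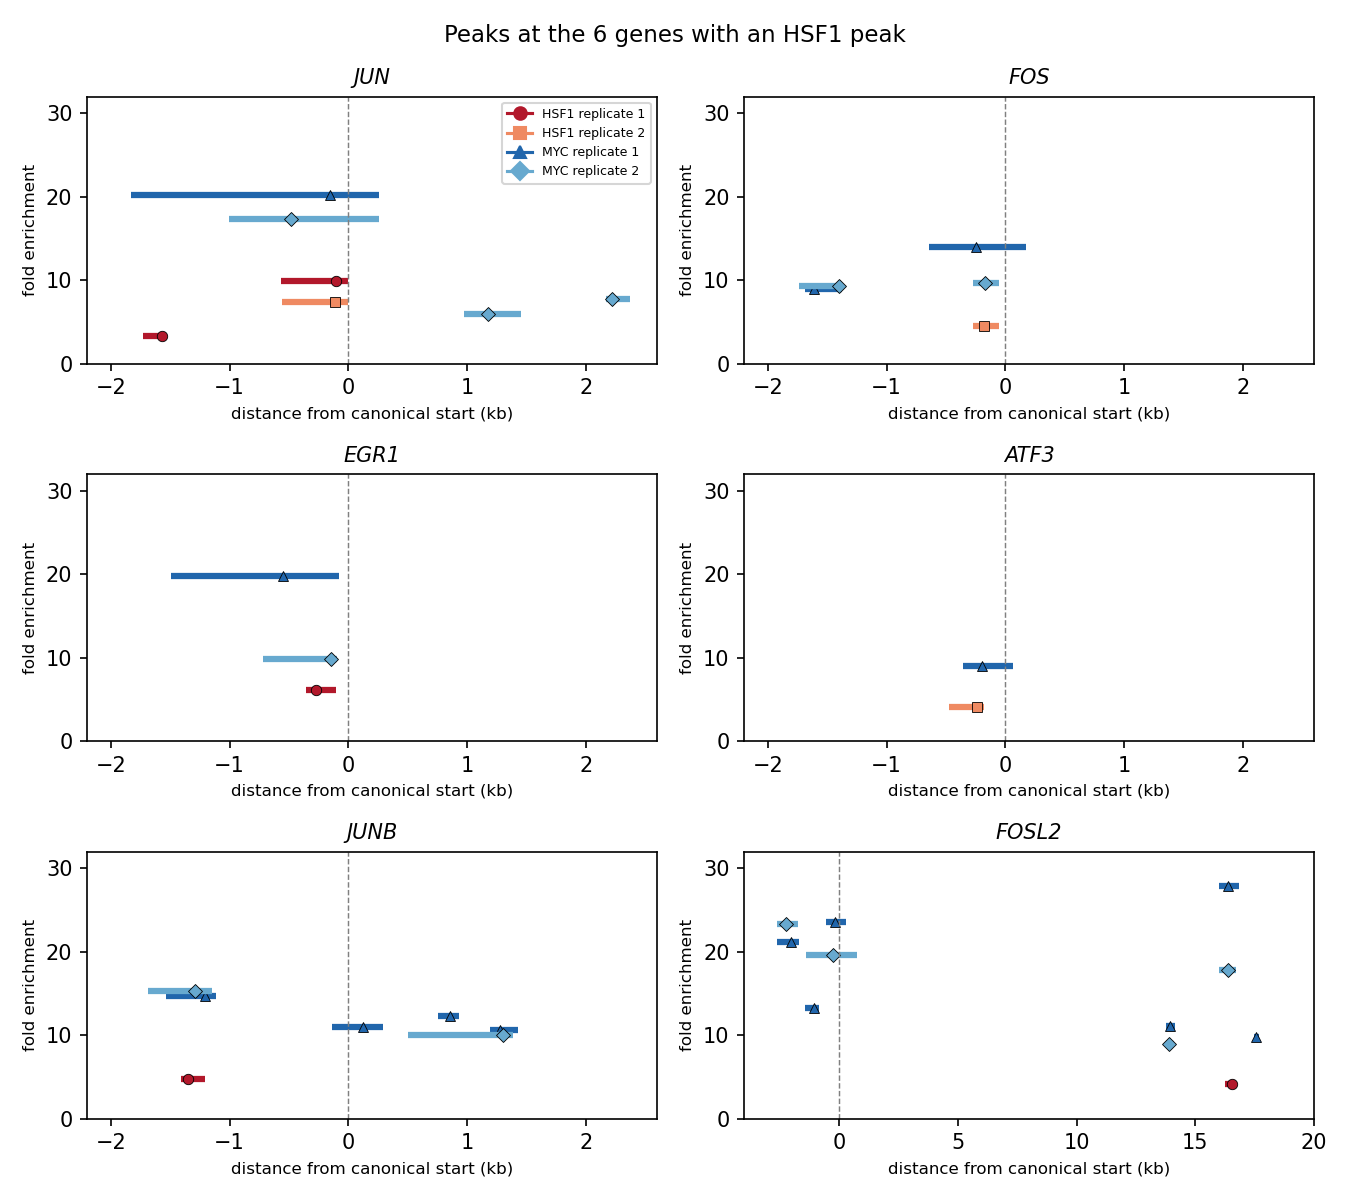
Peaks at the 6 genes with an HSF1 peak, with distance from the canonical transcript start in kb on the horizontal axis (along the gene, start at 0) and fold enrichment over IgG on the vertical axis. Bars span a peak and symbols mark its summit. Each HSF1 bar shares positions with a MYC bar, among them those with summits at −102 and −116 for JUN and at 16534 for FOSL2.

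Summits next to a start are counted by list here, without a share over all peaks of the list. The HSF1 lists had only 5 and 3 peaks, too few to compare. Within 500 bp of the canonical start lay 2 of the 5 HSF1 summits of replicate 1 and 3 of the 3 of replicate 2, and 9 of 25 and 5 of 19 MYC summits (replicates 1 and 2). Counting the start of any coding transcript of the gene, the MYC numbers were 11 of 25 and 7 of 19, and the HSF1 numbers were the same. The other MYC summits were spread over upstream sites, introns, the single exons of JUN, JUNB and JUND, exon 2 of IER2 and, at FOSL1, the stretch past the gene's end. Within 1 kb of the canonical start, a window chosen after the data were seen, MYC replicate 1 had a peak at 10 of the 10 genes (50.9% of all genes) and MYC replicate 2 at 7 (37.7%). HSF1 had one at 2 genes in replicate 1 (6.56%) and at 3 in replicate 2 (5.42%).

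In HSF1 replicate 1 and MYC replicate 1 the size of the peaks was close to that at other genes with a peak. It was lower in HSF1 replicate 2 and higher in MYC replicate 2. The median over genes of the highest fold was 5.42 at 4 genes in HSF1 replicate 1, against 5.29 over all genes with a peak, and 4.52 at 3 genes in replicate 2, against 5.41. In the MYC lists it was 14.8 at 10 genes in replicate 1, against 15.2, and 16.3 at 8 genes in replicate 2, against 12.0. The 16.3 counts FOSL1 by the peak at the start of CCDC85B (18.0), whose summit lay outside the window. By their highest MYC folds, IER2 and FOSL2 came first and second in replicate 1, and FOSL2 (23.3) came before IER2 (21.3) in replicate 2. The FOSL2 peaks were at different sites, with summits at 16378 and −2251. At the first of these sites FOSL2 had 17.8 in replicate 2, below IER2. The values in between did not keep their order: EGR1 was above JUNB and JUND in replicate 1 with 19.7 and below JUNB and JUND in replicate 2 with 9.79. With 2 lists per factor, the spread of a fold has no better estimate than the difference between replicates at the same site. The highest folds do not give it where their sites differ, as at FOSL2, JUND (summits at 1334 and −239) and FOSL1.

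The local IgG background of the peaks varied between these genes. It was worked out from the pileup and the fold of each peak and is given in scaled fragments. At the JUN promoter it was 3.12 in HSF1 replicate 1, higher than under 89.3% of that list's peaks, and 2.78 in HSF1 replicate 2, higher than under 91.7%. It was 1.87 at FOS and 2.16 at FOSL2, against list medians of 1.08 and 0.937 (HSF1 replicates 1 and 2), and below the median of its list at JUNB with 0.693. Of the HSF1 peaks at these genes, 4 of 5 and 2 of 3 were above their list's median, and of the MYC peaks 17 of 25 and 9 of 19. The local background was thus higher for the HSF1 peaks of JUN, FOS and FOSL2 than for the typical HSF1 peak. It is not a count of IgG fragments at the peak itself. At EGR1 (1.13) and ATF3 (0.937) the background was close to the list median. The fold already divides by this background. What part it had in the calls was not tested.

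**Figure D3:**
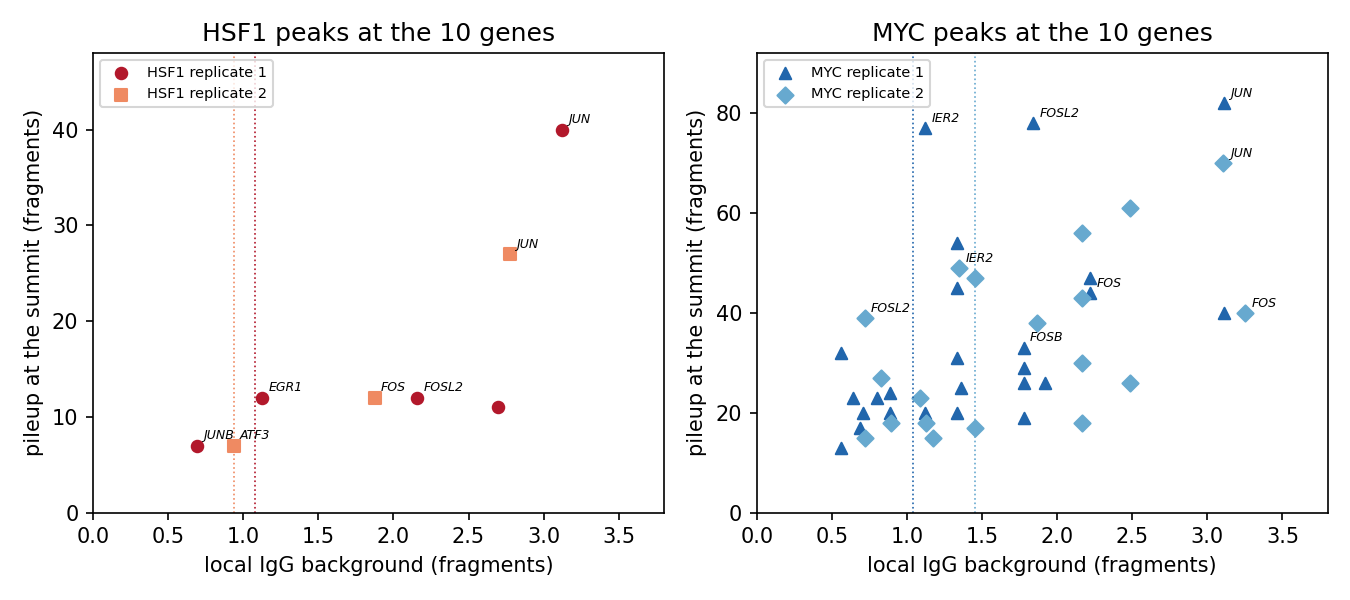
Pileup at the summit against the local IgG background, both in scaled fragments, for every HSF1 peak (left) and MYC peak (right) at the 10 genes, with dotted lines at the median background of each list. The JUN promoter is farthest up and to the right in the HSF1 panel, with pileups of 40 and 27 over backgrounds of 3.12 and 2.78.

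Motifs were searched on both strands within 100 bp of each summit. The full heat shock element, here GAA, TTC, GAA or its reverse with 2 free bases after each of the first units, was under none of the 8 HSF1 summits and none of the MYC summits at these genes. It was in 6.51% and 5.97% of all HSF1 peaks and in 0.273% and 0.271% of all MYC peaks (replicates 1 and 2), so most peaks of either factor lack it in this form. The form with 2 units, GAANNTTC or TTCNNGAA, which is part of the full element and was added after the data were seen, was found at JUN alone, and 23.9% and 23.6% of all HSF1 peaks and 8.80% and 7.17% of all MYC peaks had it.

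The E-box CACGTG was within 100 bp of a summit at FOSL2 in HSF1 replicate 1 and at no MYC summit of the 10 genes, where 6.74% and 6.82% of all MYC peaks had one. The AP-1 site TGANTCA was near the same FOSL2 summit and no other, where 25.1% and 10.9% of HSF1 peaks and 16.7% and 4.76% of MYC peaks had one. CArG boxes were near a summit at EGR1 in HSF1 replicate 1 and MYC replicate 2 and at FOS in MYC replicate 1, and 0.761% to 1.06% of the peaks of each list had one. The CRE was near the promoter summit of JUND in both MYC lists, where 0.792% and 0.271% of peaks had one. TGACATCA, searched after the data were seen on both strands, was near a summit at JUN alone, in 1.43% and 0.987% of HSF1 peaks and 0.898% and 0.414% of MYC peaks. A match describes these letters and does not show that a factor was bound to them.

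RefSeq promoters, from 250 bp before to 50 bp after the start, could be matched for 9 of the 10 genes among 15345 in all. No full heat shock element (0.358% of all promoters) and no E-box (8.89%) was in any of the 9. JUN had the pair of GAA units at −150 (11.4% of all promoters) and TGACATCA at −67 (2.18%). ATF3 had TGACATCA too, at −123 from the RefSeq start. That start is near the outer end of the gene and not at the inner start where the ATF3 peaks lay. FOSL2 had an AP-1 site at 4 (5.74%), JUND its CRE (2.64%) and EGR1 CArG boxes at −105 and −83 (1.22%).

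Other genes of the pathway were taken from 3 lists: 17 bZIP partners, 32 other immediate early genes and 20 genes for the inducing kinases and the SRF module. Among the bZIP partners, 0 genes had an HSF1 peak in both lists (2 in replicate 1 alone, ATF4 and JDP2) and 13 had a MYC peak in both, against 7.81% and 45.4% of all genes. MAFG, which encodes a small MAF protein that pairs with NFE2L2, had the highest mean MYC fold there, 26.9 and 23.9. Among the kinases and SRF genes, 1 had an HSF1 peak in both lists, MAPK14 for a stress-activated MAP kinase, and 10 had a MYC peak in both, of 20 genes, again against 7.81% and 45.4% of all genes. SRF had the highest mean MYC fold of that list, 30.4 and 16.6, and an HSF1 peak in replicate 1 alone (6.11). The MYC peaks of SRF lay at different sites, with summits at −83 and 3242.

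Of the other immediate early genes, 8 of 32 had HSF1 peaks in both replicates, against 1 of the 10 described above and 7.81% of all genes. They were CCN1, DUSP1, IER3, IER5, KLF10, MCL1, PLK2 and ZFP36L1, and whether the lists differ was not tested. Within 1 kb of the gene start the count was 2 of 32, against 2.54% of all genes. At an HSF1 threshold of 1e-10 it was also 2 of 32, and the share of all genes was not worked out there. All 8 had MYC peaks in both lists too, as did 27 of the 32 genes (45.4% of all genes), and at 6 of the 8 the HSF1 and MYC peaks overlapped in all 4 pairs of lists (3.9% of all genes). DUSP1, a phosphatase that switches off MAP kinases, had the strongest HSF1 peak, with folds of 21.5 and 26.4 and the summit at −1535 in both lists, and MYC folds of 24 and 17.6. IER5, the relative of IER2 and a known HSF1 target, had HSF1 folds of 3.82 and 5.69 and MYC folds of 10.7 and 9.17, where IER2 had no HSF1 peak. The IER5 summits lay at −1228 and −1731 for HSF1 and at −1565 and −26 for MYC.

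As at IER5, each fold is that of the highest peak of its list in the window, which need not overlap the other factor's. At KLF10, a zinc finger gene of the TGF-beta response, the HSF1 folds were 6.49 and 6.65 and the MYC folds 29.5 and 24. The KLF10 summits lay at 1745 and 1832 for HSF1 and at −235 and −247 for MYC. ZFP36L1, an mRNA decay factor, had 4.61 and 4.72 for HSF1 and 26.0 and 21.6 for MYC. PLK2, a polo-like kinase, had 6.02 and 4.2 for HSF1 (summits at −782 and −953) and 9.32 and 14.8 for MYC (−657 and −208). IER3 had the lowest HSF1 folds of the 6 genes with overlap, 3.8 and 3.29, with MYC at 15.4 and 10.5. Its HSF1 summits were at 1530 and 1288 and its MYC summits at 1440 and 385. MCL1, an inhibitor of apoptosis, and CCN1, a secreted matrix protein, had peaks of both factors that did not overlap in lists of the same replicate number. Their HSF1 folds were 5.38 and 10.8 (MCL1) and 3.39 and 3.41 (CCN1). DUSP2 had the highest mean MYC fold of the list, 59.2 and 44.3, and no HSF1 peak.

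**Figure D4:**
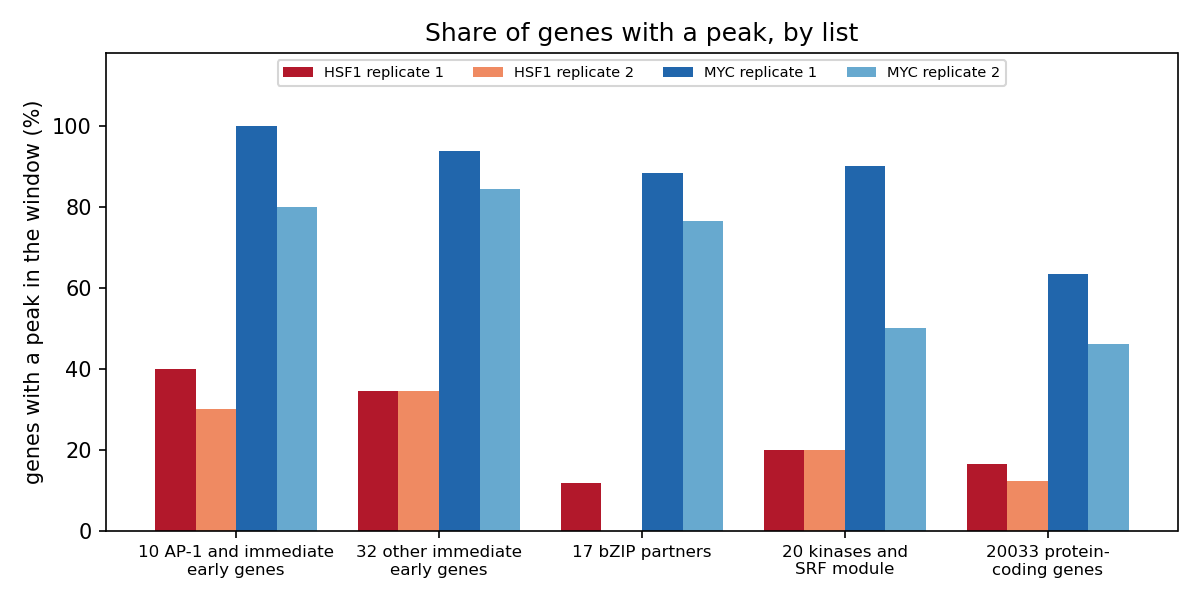
Percentage of genes with at least 1 peak from 5 kb upstream to the gene end, for each gene list and for all 20033 protein-coding genes, with 1 bar per peak list. For the 10 genes the bars are 40% and 30% in the HSF1 lists and 100% and 80% in the MYC lists, against 16.5%, 12.3%, 63.3% and 46.2% of all genes.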

How the data were processed

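CUT&RUN peak lists of OVCAR8 cells were used, 2 for HSF1 and 2 for MYC. The authors aligned trimmed reads to GRCh38 with Bowtie 2 and called peaks on each library separately with MACS 2.2.9.1 in paired-end mode, with 1 copy kept of each duplicate and the deeper of each antibody and IgG pair scaled down. The deposited values are the pileup, a signal in scaled fragments, the −log10 p-value of the local test against IgG, and the fold enrichment, a ratio. The deposited −log10 q-value column was not used. Per the file headers, the IgG library is replicate 2, while the labels list 1 IgG sample without a number.

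Windows came from GENCODE 44, and lists were compared with Python 3.11.15, pandas 2.3.3 and numpy 2.4.6. The local background was computed as (pileup + 1) / fold − 1. Summit distances are from the canonical transcript start along the gene unless stated. Overlap required 1 bp. The overlap code was tested on simulated data. Sequences came from GRCh38 and RefSeq promoters (GRCh38.p14). No test was run. Fragments are not independent molecules, and no counting intervals can be made from the lists. All 10 genes are described, and from each further list IER5, genes with peaks in all 4 lists and the gene with the highest mean MYC fold; MAPK14, ATF4 and JDP2 were named after their values were seen. Members and lists were chosen with earlier results of these data known.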

Additional observations from a re-analysis of the deposited data

How the results depend on the processing

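JUN was the gene with HSF1 peaks in both lists under every window and threshold tried. With a window from 10 kb upstream the count was 2, with ATF3 added by the peaks nearest to the start of ENSG00000288007. The share of all genes was not worked out at that window. With either HSF1 list counting, the count was 6 (21.1% of all genes). The number of genes with both factors, and with overlapping peaks, also went from 1 to 6 with either list counting. Leaving out 1 HSF1 list gave 3 and 4 genes for HSF1 and 2 and 4 genes for both factors and for overlap, while leaving out a MYC list kept 1. With summits required within 250 bp in all pairs the overlap count was 0. MYC counts in both lists stayed between 7 and 10 in all settings. Among other immediate early genes the HSF1 count of 8 and the overlap count of 6 were both 2 within 1 kb of the gene start. Over all genes the shares in that window were 2.54% for HSF1 and 2.01% for overlap. Both counts were also 2 at an HSF1 threshold of 1e-10, where no share of all genes was worked out. Among kinases and SRF genes the HSF1 count was 0 within 1 kb of the start.

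Motif counts moved with the stretch searched. Over the whole peak, genes with a match at their strongest MYC peak numbered 3 for the E-box, 2 for AP-1, 2 for the CRE and 4 for CArG, and at their strongest HSF1 peak 0 for AP-1 and 0 for CArG. Within 50 bp, CArG was at 1 MYC gene and 0 HSF1 genes, and AP-1 at 0 HSF1 genes. The share of all peaks with a match was not worked out for either stretch, so these counts cannot be read against it. MYC peaks at the 10 genes were also longer, with medians of 583 bp and 731 bp against 460 bp and 451 bp over their lists. The heat shock element with 2 units, an alternative chosen after seeing the data, was at 1 gene for each factor. The other settings left the counts within 1.5 times. No paired analysis was possible because the lists hold peaks without counts and no test was made. At the HSF1 threshold of 1e-10 the JUN promoter was the 1 HSF1 site left at the 10 genes.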

Other observations

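The share of peaks with an AP-1 site within 100 bp of the summit differed between replicates in the same direction for both antibodies. It was 25.1% in HSF1 replicate 1 against 10.9% in HSF1 replicate 2, and 16.7% in MYC replicate 1 against 4.76% in MYC replicate 2. The E-box share did not move in this way, at 3.38% and 3.32% in the HSF1 lists and 6.74% and 6.82% in the MYC lists. The replicate 1 list was also the longer for both antibodies, 6477 against 4492 peaks for HSF1 and 25646 against 13290 for MYC. Labels give no further account of the replicates, so list length, library and culture cannot be told apart. FOSL1 and FOSL2 each had an AP-1 site at the canonical start, TGAGTCA at −1 and TGACTCA at 4, inside a MYC peak in both lists.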
